A study of Mus musculus with 2 samples.

Results

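The cells described here were the *Unc5d*/*Sstr2* cells of the embryonic mouse brain, selected from 2 MERFISH sections by their own transcript counts. A cell was selected if it held at least 20 transcripts of the panel, if *Unc5d* and *Sstr2* together gave at least 2 counts and at least 3% of its transcripts, if *Eomes* and the sum of *Gad1* and *Gad2* each stayed below 2 counts, and if the sum of *Unc5d* and *Sstr2* was not below that of *Fezf2*, *Mc4r* and *Ntsr1* nor below that of *Slc17a7* and *Nr4a2*. Of 218537 segmented cells, 156481 held at least 20 transcripts, and 5012 of these met the rule. The control section held 872 of them and the KO section 4140. Their working name was upper-layer or immature projection neurons, and *Pou3f2*, the remaining marker of that name, was not used to select them. Since neither the panel nor 1 embryonic stage gives a laminar fate, and since the rule gathered cells of differing content in differing places, they are called *Unc5d*/*Sstr2* cells throughout.

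The study asked how deletion of *Dnmt1* in somatostatin interneurons affects the developing cortex, including cortical cells that do not express the Cre recombinase. MERFISH images single RNA molecules in tissue sections by rounds of hybridisation with barcoded probes, and here it counted the Vizgen Pan Neuro panel of 500 genes together with 50 blank barcodes that match no transcript. One coronal section of 10 µm from a flash-frozen head at E16.5 was measured per genotype: the control was *Sst-Cre/tdTomato*, from a cross of the *Sst*-driven Cre line with the *Rosa26* CAG-tdTomato reporter, and the KO was *Sst-Cre/tdTomato/Dnmt1 loxP2*, which added the floxed *Dnmt1* allele. The study's methods give a C57BL/6J background for its strains, and the name of the *Dnmt1* stock includes B6;129S. Both sections thus carried Cre and the reporter, recombination was directed to *Sst*-expressing cells, and with 1 section per genotype no test between genotypes was possible.

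Projection neurons of the cortex are born from radial glia and from *Eomes*-positive intermediate progenitors beside the ventricle, pass a multipolar stage in the subventricular and intermediate zones and then climb to the cortical plate, where later-born cells settle above earlier ones. *Unc5d* encodes a netrin-family receptor known from multipolar migrating cells of the subventricular zone, and *Sstr2* encodes a somatostatin receptor transcribed in immature cortical neurons. *Pou3f2* (Brn2) encodes a POU transcription factor of late progenitors and of migrating and upper-layer neurons.

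The sections differed in depth. The control section held 2842355 panel transcripts in 108533 segmented cells (median 20 per cell) and the KO section 13437174 in 110004 cells (median 101), so that 50.9% and 92.0% of the cells passed the minimum. Blank barcodes took 0.496% and 0.486% of all counts, and the sections shared no cell identifier. In *Unc5d*/*Sstr2* cells a blank barcode averaged 115 CPM in control and 90.7 CPM in the KO section, and no fold is read from a level near or under these values. The *Unc5d*/*Sstr2* cells themselves held a median of 31 transcripts in control and 81.5 in the KO section, a ratio of 2.63. Levels are therefore given as CPM, the counts of a gene over the summed panel transcripts of the cells scaled to 1e+06, and ranges in parentheses are exact 95% intervals (Poisson for CPM and their ratios, binomial for shares, order statistics for medians) that cover counting error only. Imaging run, genotype, level of the section and depth cannot be told apart. The 2 hemispheres of a section are named A and B without regard to side, and they show the spread within 1 embryo, not between embryos.

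The genes of the rule describe the selection and support nothing else. *Sstr2* carried most of it. Of the control cells, 73.1% held *Sstr2* without *Unc5d*, 23.9% held both and 3.10% held *Unc5d* alone, whereas in the deeper KO section 61.8% held both, 34.5% *Sstr2* alone and 3.72% *Unc5d* alone. The sum of both genes took a median of 7.5% of a cell's transcripts in control and 5.57% in the KO section. Cells near the limits were counted within the pallial region described below. Just outside the count limit lay 768 control and 255 KO cells that met every other criterion with 1 count. Their *Pou3f2* levels of 57764 and 58679 CPM stood beside 55572 and 61365 CPM in the 426 and 595 cells just inside it with 2 counts. Just outside the share limit, at 2 to 3%, lay 22 control and 841 KO cells with 18116 and 46926 CPM of *Pou3f2*, against 21185 and 53632 CPM in the 41 and 781 cells at 3 to 4%. No gap in *Pou3f2* marked either limit, although the intervals of the KO cells on the 2 sides of the share limit did not overlap (45672 to 48206 CPM outside and 52144 to 55152 CPM inside it).

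Most *Unc5d*/*Sstr2* cells lay in the pallium, the part of the telencephalon that forms the cortex. A pallial region was drawn on each section from *Tbr1*, *Fezf2*, *Slc17a7*, *Eomes* and *Mc4r* against 12 subpallial genes, without *Unc5d*, *Sstr2* or *Pou3f2*. It covered 3.64 mm² of the control and 3.62 mm² of the KO section and contained 721 of the 872 control and 3771 of the 4140 KO cells (82.7% and 91.1%). *Fezf2*, *Slc17a7*, *Eomes* and *Mc4r*, and *Gad1* and *Gad2* among the subpallial genes, also set limits in the rule. The shares inside and outside the region are therefore not independent of the selection. Of 30916 control and 33152 KO segmented cells of the region, 14308 and 31819 held at least 20 transcripts, and shares are taken over such cells only. Among these, 721 of 14308 cells, 5.04%, met the rule in control and 3771 of 31819 cells, 11.9%, in the KO section. Outside the region the shares were 0.369% (0.313 to 0.433) and 0.531% (0.479 to 0.588). The log2 ratio of the KO to the control pallial share was 1.23 (1.09 to 1.38). Both shares leave out the cells of the region with 1 count, 768 in control and 255 in the KO section, and the ratio depends on this limit.

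That ratio was smaller at equal depth. Thinned to 20 transcripts per cell, where the count limit is stricter than the share limit, 2.82% of the control and 5.49% of the KO pallial cells met the rule, a log2 ratio of 0.96. The hemispheres of the control section gave 2.90% (2.40 to 3.47) in A and 5.85% (5.41 to 6.32) in B at median depths of 14 and 22 transcripts, and those of the KO section 12.2% (11.6 to 12.7) and 11.6% (11.1 to 12.1) at 105 and 92. These depths are medians over all segmented cells of the region in a hemisphere, whereas the shares are over cells with at least 20 transcripts. Both KO hemispheres exceeded both control hemispheres, with log2 ratios of 0.99 for B and 2.07 for A. The rule also admits some cells of other kinds: among cells of the region with at least 3 counts of the microglial genes *Csf1r*, *Cx3cr1* and *C1qa*, 4 of 114 of the control section met it (3.51%) and 33 of 498 in the KO section (6.63%), and among cells with at least 3 counts of vascular genes 3 of 507 (0.592%) and 79 of 1973 (4.00%).

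**Figure D1:**
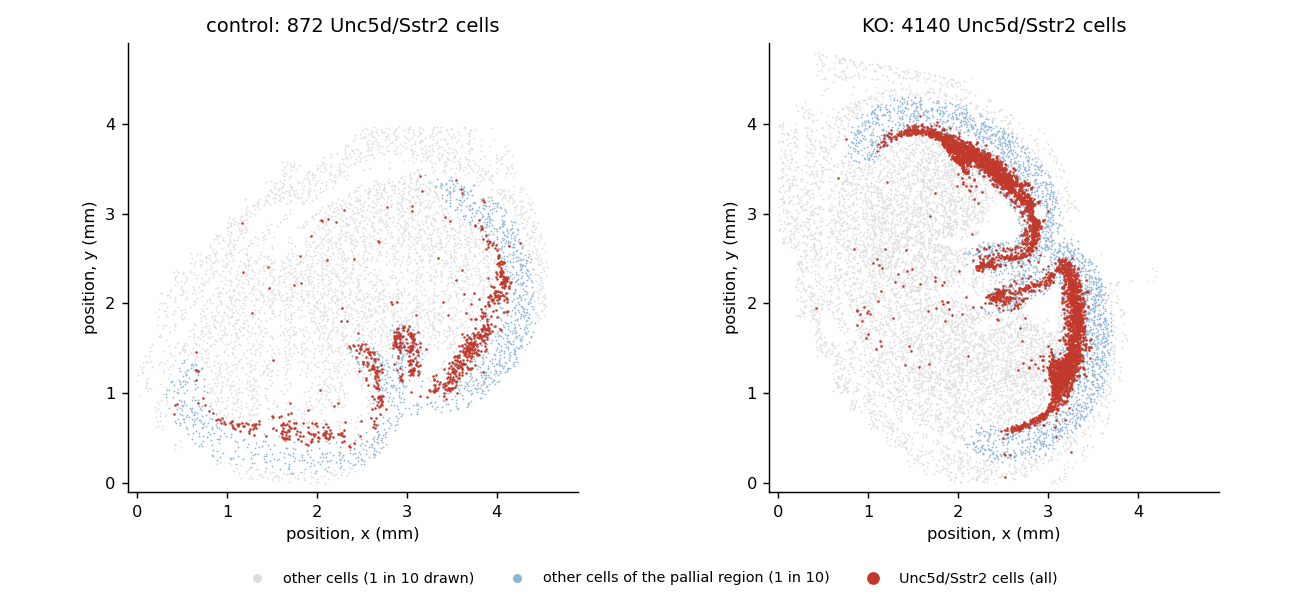
Positions of the *Unc5d*/*Sstr2* cells inside and outside the pallial region over a subset of the other cells of the section, in the control (left) and the KO section (right), with both axes in mm. Most cells form a band along the inner side of the pallial wall or a further group beside the line between the hemispheres. Drawn are 872 cells in control and 4140 in the KO section, of which 151 and 369 lie outside the region.

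The cells formed a band along the inner, ventricular side of the pallial wall. Relative depth was the distance from the outer edge of the region over the sum of the distances from both edges, so that 0 is the pial and 1 the ventricular side. The median over the whole region was 0.849 (0.835 to 0.858) in control and 0.766 (0.760 to 0.773) in the KO section, while all pallial cells over the minimum had medians of 0.469 and 0.440. The KO band thus lay 0.083 closer to the outer edge, and the sign of this difference turned to 0.016 when the region was drawn with a limit of 4% instead of 3% on the share of region genes in a bin. The place of the band on the inner side was common to both sections, whereas its shift between them depended on how the region was drawn.

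The edges of the region were drawn from gene counts, and the ventricular surface itself was not traced. Distances from the inner edge are therefore not distances from the ventricle. In the dorsolateral wall, at least 600 µm from the line between the hemispheres, lay 522 control and 2773 KO cells. Their median depth was 0.875 (0.865 to 0.887) and 0.803 (0.797 to 0.809), equal to 64.5 and 102 µm from the inner edge. *Eomes* cells (at least 2 counts), the intermediate progenitors, lay deeper at 0.939 and 0.940. Cells led by the layer 5 and 6 genes *Fezf2*, *Mc4r* and *Ntsr1* lay at 0.330 and 0.263, and cells led by *Slc17a7* and *Nr4a2* at 0.457 and 0.411. From the inner edge outwards the order in both sections was therefore *Eomes* cells, *Unc5d*/*Sstr2* cells, *Slc17a7*/*Nr4a2* cells and deep-layer cells. The intervals of the medians did not overlap between neighbours except where 25 control *Eomes* cells gave an interval of 0.887 to 0.966.

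When the wall was cut into 10 bins of equal relative depth, the inner 3 bins held 472 of the 522 control cells (90.4%) and 2145 of the 2773 KO cells (77.4%). The outer 3 bins had 9 and 5 of them. In the control, 185 of 912 cells, 20.3%, of bin 9 and 211 of 1066 cells, 19.8%, of bin 10 met the rule, in contrast to 29 of 903 cells, 3.21%, of bin 7. In the KO section the share was highest in bin 8, at 740 of 1860 cells, 39.8%, and still reached 460 of 1904 cells, 24.2%, in bin 7. The log2 KO to control ratio of the share was 3.57 (2.29 to 5.12) in bin 6, 2.91 (2.28 to 3.60) in bin 7 and 0.56 (0.29 to 0.83) in bin 10, and in bins 1 to 4, which held few such cells, each interval included 0. The bins rest on the region drawn with the 3% limit, and since the 4% limit turned the difference of the medians, the wider band of the KO section holds for this region alone. The part of depth and of the section's level in it was not tested.

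**Figure D2:**
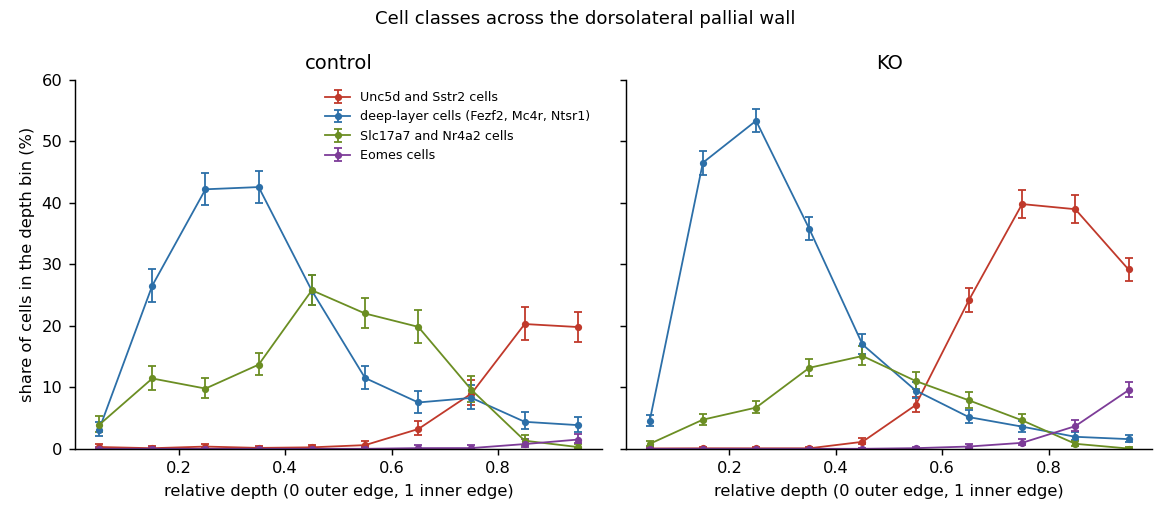
Share of the cells over the minimum that fell in each class (%) against relative depth in the dorsolateral wall, in 10 bins from the outer edge (0) to the inner edge (1), for the control (left) and the KO section (right), with exact 95% binomial intervals as bars. The share of *Unc5d*/*Sstr2* cells peaked at 20.3% in control and 39.8% in the KO section on the inner side, opposite to the deep-layer cells.

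The cells lay next to each other, also when cells of the same zone were compared. Within 50 µm of an *Unc5d*/*Sstr2* cell of the wall, 24.9% of the neighbours met the rule in control and 47.5% in the KO section, against 2.83% and 7.92% around the other cells of the wall. Within the inner zone, at a relative depth of 0.85 or more, the shares were 28.7% against 15.5% in control and 46.0% against 23.9% in the KO section. *Eomes* cells made up 1.08% of the neighbours of *Unc5d*/*Sstr2* cells of the wall in control and 2.996% in the KO section, against 0.163% and 1.36% around the other cells. The order depended on the zone in the KO section, with 2.43% against 1.58% in the middle zone but 5.16% against 9.88% in the inner zone. In the control, with 25 *Eomes* cells in the wall, the inner zone gave 1.66% and 1.49%. Neighbouring cells can pass transcripts to each other through the drawn cell borders, so adjacency and shared counts are not separate measurements.

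Beyond the genes of the rule, the *Unc5d*/*Sstr2* cells of the pallial region were compared with all other pallial cells of the same section. Among 242 genes at or above the panel's median level in the *Unc5d*/*Sstr2* cells, 12 (4.96%) had ratios of at least 2 in both sections: *Pou3f2*, *Meis2*, *Lhx2*, *Onecut2*, *Nrp1*, *Epha3*, *Slc17a6*, *Igfbpl1*, *Ust*, *Prokr2*, *Cemip* and *Sema3c*, the last of which is not read in control since the other pallial cells lay under the blank mean there. Counted in each section by itself, these included, 35 genes (14.5%) passed in control and 15 (6.2%) in the KO section. *Sema3c* and *Cemip* also lay below the median level in the other pallial cells and were tested only through their level in *Unc5d*/*Sstr2* cells, and among the 208 genes at or above the median in both kinds of cells 10 (4.81%) passed. When every cell was thinned to 20 transcripts 9 genes passed, 6 of them among the 12, and *Lhx2*, *Onecut2*, *Igfbpl1*, *Epha3*, *Prokr2* and *Cemip* did not. Of 240 genes at or above the median in the other pallial cells, 69 (28.8%) were at least 2-fold lower in both, and of the 208 genes 41 (19.7%). Over all 242 genes the median log2 ratio was -0.27 in control and -0.61 in the KO section, so the higher genes stood against a panel that leaned lower.

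Transcription factors were among the higher genes. *Pou3f2*, the marker that took no part in the selection, reached 49888 CPM (47187 to 52704) in control and 60691 CPM (59906 to 61485) in the KO section, against 16985 and 18982 CPM in the other pallial cells, log2 ratios of 1.55 (1.44 to 1.66) and 1.68 (1.65 to 1.71). The single hemispheres gave 1.998 and 1.49 in control and 1.74 and 1.63 in the KO section. In cells of the region thinned to 20 transcripts, 57.6% of the control and 66.7% of the KO *Unc5d*/*Sstr2* cells held a *Pou3f2* transcript (unthinned 64.5% and 89.4%). Other pallial cells gave 25.6% and 29.8%, and *Eomes* cells 40.6% and 49.7%. Microglia, which should lack it, gave 4.67% and 6.91% (unthinned 7.07% and 18.2%), but they were taken from the whole section. The microglia were the deeper cells, with median depths of 52 and 159 transcripts against 31 and 82.

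*Meis2*, a TALE homeodomain factor of immature neurons, stood at 62683 and 86802 CPM, log2 1.64 (1.54 to 1.74) in control and 1.47 (1.45 to 1.50) in the KO section over the other pallial cells. *Lhx2*, a LIM-homeodomain factor of cortical progenitors, and *Onecut2*, a cut-homeodomain factor, were lower in level, at 2778 and 3547 CPM and at 3169 and 1599 CPM, with log2 ratios of 1.87 and 1.19 and of 1.75 and 1.27. *Cux2*, a homeobox gene of upper-layer neurons and their progenitors, reached the 2-fold limit in the KO section alone, at 0.88 (0.69 to 1.06) and 1.15 (1.10 to 1.20), and *Pou3f1* gave log2 ratios of 0.71 and 1.21. *Rorb*, a gene of layer 4, was lower at log2 -2.31 and -2.15, and *Tbr1*, a T-box factor of newborn and layer 6 neurons, lay at -0.22 and -0.27.

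Receptors and ligands of guidance formed the next group. *Nrp1*, a co-receptor for class 3 semaphorins, reached 18547 and 36822 CPM against 5858 and 9780.1 CPM in the other pallial cells, log2 1.66 (1.48 to 1.84) and 1.91 (1.87 to 1.95). *Nrp1* is also a gene of vessels and microglia. Thinned to 20 transcripts it was found in 21.0% and 28.6% of microglia of the whole section against 27.3% and 47.2% of *Unc5d*/*Sstr2* cells of the region (unthinned 40.8% and 75.2% against 41.2% and 77.5%). *Sema3c*, a secreted class 3 semaphorin, had a low level, 548 CPM from 14 counts in control and 826 CPM in the KO section, against 100.4 and 198 CPM in the other pallial cells. Only the KO ratio is therefore given, log2 2.06 (1.79 to 2.33). *Epha3*, an ephrin receptor, gave log2 ratios of 1.05 (0.75 to 1.34) and 1.02 (0.98 to 1.07) at 6417 and 20672 CPM.

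The remaining higher genes encode proteins of differing function. *Slc17a6*, the vesicular glutamate transporter VGLUT2, stood at 7865 and 7469 CPM, log2 1.93 (1.63 to 2.21) and 1.46 (1.38 to 1.55), whereas the rule had limited *Slc17a7* (VGLUT1). *Igfbpl1*, a secreted protein of the insulin-like growth factor binding family, was high in level at 38267 and 38487 CPM, with log2 ratios of 1.65 and 1.28. *Ust*, a uronyl sulfotransferase, gave log2 ratios of 1.71 and 1.63, *Cemip*, a hyaluronan-binding protein, 2.09 and 1.02 at levels below 1000 CPM, and *Prokr2*, the prokineticin receptor, 1.04 and 1.05. By single hemispheres *Prokr2* passed 2-fold only in B of the KO section, with log2 ratios of 0.54 and 0.95 in A and B of the control and 0.12 and 1.25 in those of the KO section. *Cemip* stayed below 2-fold in hemisphere A of the KO section, at 0.63, and *Epha3* in B of the control, at 0.97.

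The lowest genes marked other cells or mature neurons, and in *Unc5d*/*Sstr2* cells of both sections they stood near or under the blank mean except *Grin3a* in control, so that levels and no folds are given. *Dcn*, a proteoglycan of meningeal and other connective tissue cells, stood at 117 and 101 CPM against 2284 and 3672 CPM in the other pallial cells. *Ndnf*, a gene of Cajal-Retzius and layer 1 cells, stood at 78.3 and 42.6 CPM against 997 and 854, and the dopamine receptor gene *Drd1* at 117 and 85.3 against 1481 and 1394 CPM. The glutamate receptor subunit gene *Grin3a* gave 274 and 104 CPM against 4568 and 2997, and *Il1rapl2*, a synaptic adhesion gene, 39.1 and 16.0 against 670.0 and 610.4 CPM. Each of these rested on 1 to 7 control counts in *Unc5d*/*Sstr2* cells.

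**Figure D3:**
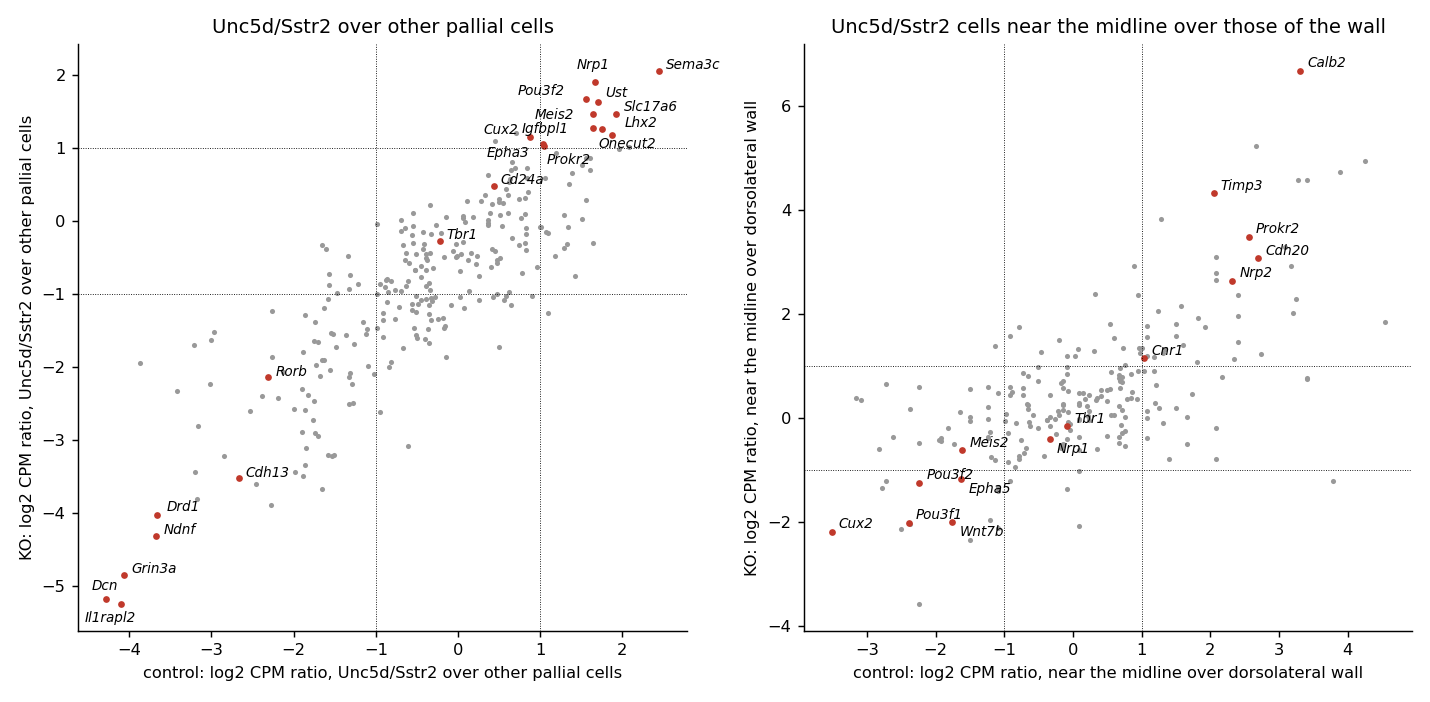
Log2 CPM ratios of panel genes in the control (x) and KO section (y): *Unc5d*/*Sstr2* cells over other pallial cells (left) and *Unc5d*/*Sstr2* cells near the midline over those of the dorsolateral wall (right), with 1 point per gene and the 2-fold limits as lines. On the left *Pou3f2* lies at 1.55 and 1.68; on the right it lies at -2.24 and -1.25, opposite to *Prokr2* at 2.56 and 3.49, while *Sema3c* and the 5 genes at the lower left of the left panel and *Calb2* on the right have a level near or under the blank mean in 1 or both sections and no fold against that level is read.

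Taken by list, 11 genes of upper-layer or migrating projection neurons were on the panel outside the rule, and 8 were higher and 2 lower in both sections by any amount, beside 57 (23.6%) and 132 (54.5%) of all 242 genes. Of these, *Lhx2*, *Nrp1*, *Epha3* and *Pou3f2* passed 2-fold in both, against 4.81% of the 208 genes, and *Rorb* and *Cdh13*, a cadherin gene at -2.67 and -3.53, were at least 2-fold lower, against 19.7%. The list's median log2 ratio was 0.71 in control and 1.02 in the KO section, beside -0.27 and -0.61 over all genes. Of 5 deep-layer genes outside the rule none was at least 2-fold higher and 4 were lower in both sections, beside the 54.5%. Their medians of -0.22 and -0.54 were close to the -0.27 and -0.61 over all genes. Among cells of the inner zone 2 were higher and 0 lower, with medians of 0.22 and 0.46 beside -0.31 and -0.43 over all genes. In the middle zone 1 was higher and 3 lower, with medians of -0.56 and -0.81 beside -0.42 and -0.72. For the 16 guidance and adhesion genes the medians were 0.50 and 0.23, with 9 higher in both beside the 23.6%. *Nrp1* and *Epha3* passed 2-fold in both, beside the 4.81%. Of 16 transmitter and peptide receptor genes, 12 were lower and 1 higher in both sections beside the 54.5% and 23.6%, with medians of -0.79 and -1.45. The 8 potassium channel genes had medians of -0.22 and -0.51, close to those of the panel.

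The contrast with other cells was smaller at equal position. Among cells of the inner zone only, 2 of the 242 genes (0.826%) had ratios of at least 2 in both sections, *Nrp1* and *Sema3c*. *Nrp1* stood at log2 1.05 (0.62 to 1.48) and 1.90 (1.76 to 2.03), and *Sema3c*, whose 7 control counts in the other cells lay near the blank level, is read in the KO section only, at 1.20 (0.63 to 1.77). *Pou3f2* still lay above the other cells of that zone, at log2 0.78 (0.59 to 0.97) and 0.41 (0.35 to 0.48), but below 2-fold. In the middle zone, from 0.7 to 0.85, 4 genes (1.65%) passed in both, *Lhx2*, *Nrp1*, *Ust* and *Onecut2*, and *Pou3f2* stood at 0.94 and 1.05. In the inner zone 23 genes (9.5%) and in the middle zone 47 genes (19.4%) were at least 2-fold lower. The other cells of the inner zone were not free of the rule's genes, since 33.8% of them in control and 66.0% in the KO section held *Unc5d* or *Sstr2* without meeting the rule.

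Set against single classes of pallial cells, the number of genes that differed changed with the class. For the deep-layer, *Slc17a7*/*Nr4a2* and *Eomes* cells alike, the 242 genes were chosen by level in *Unc5d*/*Sstr2* cells alone. A gene low in a class could therefore count as higher, while one below the median in *Unc5d*/*Sstr2* cells could not count as lower. *Sema3c*, among the higher genes, lay under the blank mean in control deep-layer cells, at 76.3 CPM. Against the deep-layer cells, 43 of 242 genes (17.8%) were at least 2-fold higher and 34 (14%) lower in both sections. *Pou3f2* was 1.73 and 2.14 higher on the log2 scale, *Slc17a6* 3.52 and 3.26, and *Cux2* 1.85 and 2.69. Both directions together came to 77 genes (31.8%). Against the *Slc17a7*/*Nr4a2* cells 96 genes (39.7%) differed at least 2-fold the same way in both sections, 56 of them (23.1%) lower in *Unc5d*/*Sstr2* cells, with *Pou3f2* at 3.63 and 4.12 and *Nrp1* at 3.75 and 4.66.

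The *Eomes* cells were nearest in place. Of the 242 genes, 36 (14.9%) differed from them at least 2-fold the same way in both sections, 14 higher (5.79%) and 22 lower (9.09%), but 32 control *Eomes* cells entered, too few for many genes. In the KO section alone 64 (26.4%) were higher and 52 (21.5%) lower than in *Eomes* cells, beside 56 (23.1%) and 57 (23.6%) against deep-layer cells and 48 (19.8%) and 82 (33.9%) against *Slc17a7*/*Nr4a2* cells. On the log2 scale *Nrp1* was 3.48 (1.50 to 6.66) and 3.19 (3.003 to 3.39) above them and *Cux2* 2.25 (0.75 to 4.27) and 2.32 (2.12 to 2.52). *Pou3f2* and *Meis2* did not reach 2-fold against them, at log2 0.55 and 0.62 and at -0.13 and -0.03. The progenitor genes *Sox9* and *Aldoc* were lower, at log2 -1.56 (-2.21 to -0.88) and -2.70 (-2.84 to -2.57) and -2.05 (-2.90 to -1.13) and -2.85 (-3.02 to -2.68). These genes were named after their values were seen.

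Inside the band, levels changed with depth. The wall held 50 control and 628 KO *Unc5d*/*Sstr2* cells in the outer zone (below 0.7), 159 and 1130 in the middle zone and 313 and 1015 in the inner zone, with median transcripts of 34, 31 and 29 in control and 78, 83 and 85 in the KO section. Of 242 genes, 20 (8.26%) were at least 2-fold higher in the inner zone than in the other zones together in both sections, and 6 (2.48%) were lower, among them *Nrp1*, *Tenm3*, *Clstn2*, *Crim1* and *Nkain3*. The examples that follow were chosen after their values were seen.

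*Nrp1* was lowest in the inner zone of both sections: it stood at 21583 CPM in the outer zone, 31329.7 CPM in the middle zone and 13317 CPM in the inner zone of the control, and at 53275 CPM in the outer zone, 49254 CPM in the middle zone and 20949 CPM in the inner zone of the KO section. The log2 ratio of the inner zone over the rest was -1.12 (-1.57 to -0.67) and -1.27 (-1.36 to -1.18). The other cells showed no such slope common to both sections for *Nrp1* (0.56 and -0.54). The teneurin gene *Tenm3*, a synaptic partner gene, and *Clstn2*, a calsyntenin gene, ran the same way but had 4 counts each in the inner zone of the control.

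Of the 4 radial glia genes on the panel, 3 were at least 2-fold higher in the inner zone in both sections, beside 8.26% of all genes. *Sox9*, an SRY-box factor of radial glia, stood at 2214 CPM in the outer zone, 5282 CPM in the middle zone and 14311 CPM in the inner zone of the control, and at 1744 CPM in the outer zone, 2235 CPM in the middle zone and 4362 CPM in the inner zone of the KO section, a log2 ratio of 1.66 (0.93 to 2.44) and 1.07 (0.79 to 1.36). *Aldoc*, a glycolytic enzyme gene of the glial lineage, gave log2 ratios of 2.20 (1.05 to 3.48) and 2.91 (2.47 to 3.37), and *Hopx*, a homeodomain-only gene of radial glia, 2.34 (0.10 to 5.23) and 1.23 (0.30 to 2.18). *Creb5*, the remaining gene of the list, gave 1.12 (-1.19 to 3.80) and 0.71 (0.24 to 1.19). *Mfge8*, a secreted glycoprotein gene, had log2 ratios of 3.54 (1.98 to 5.47) and 2.49 (2.11 to 2.88). The other cells of the wall had steeper slopes for *Sox9* (3.94 and 3.67), *Aldoc* (5.11 and 5.68) and *Hopx* (5.26 and 4.53), and the share of these transcripts that came from adjoining radial glia was not tested.

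*Pou3f2* was present in all zones, at 63088 CPM in the outer zone, 79235 CPM in the middle zone and 60624 CPM in the inner zone of the control, and at 81675 CPM in the outer zone, 77431 CPM in the middle zone and 59782 CPM in the inner zone of the KO section. *Top2a*, a topoisomerase of dividing cells, stood at 11068 CPM in the outer zone, 16758 CPM in the middle zone and 14510 CPM in the inner zone of the control and at 18282 CPM in the outer zone, 22185 CPM in the middle zone and 22984 CPM in the inner zone of the KO section. Its inner-over-rest ratios were -0.08 (-0.59 to 0.43) and 0.14 (0.03 to 0.24), while the other cells of the wall gave 3.22 and 3.61. *Top2a* was thus nearly level across the band of *Unc5d*/*Sstr2* cells and concentrated on the ventricular side among the others. *Tbr1* was higher in the inner zone, at log2 0.46 (0.12 to 0.79) and 0.98 (0.89 to 1.06), against -0.33 and -0.43 in the other cells.

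**Figure D4:**
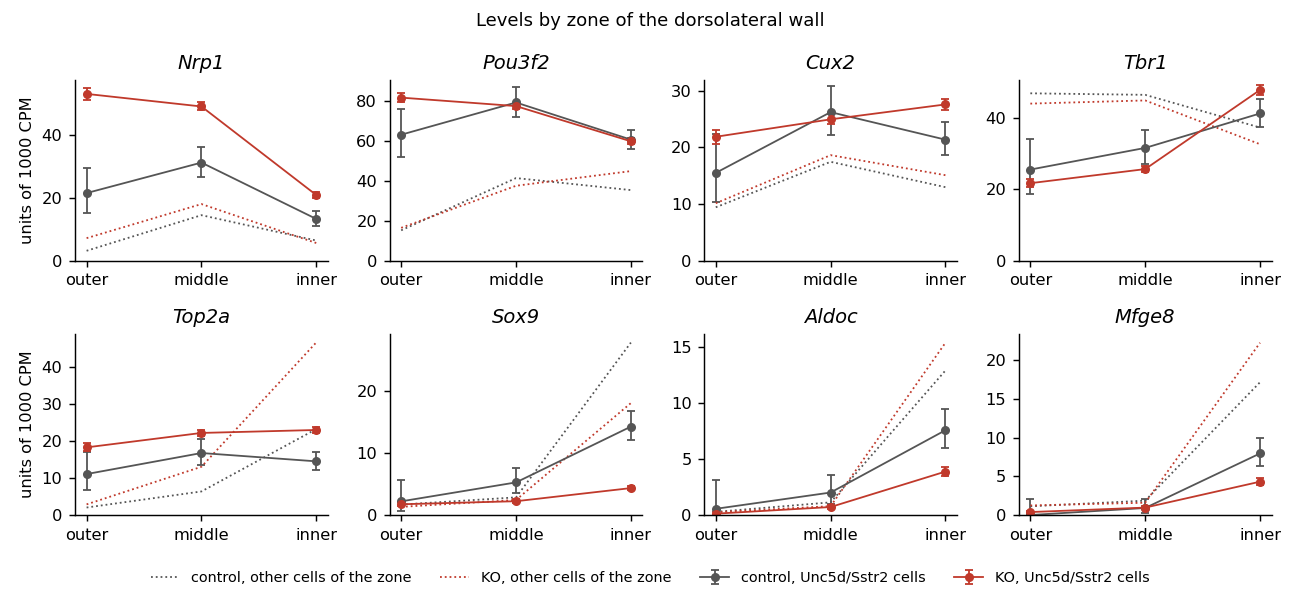
Levels of selected genes (in units of 1000 CPM) in the outer, middle and inner zone of the dorsolateral wall, solid lines for *Unc5d*/*Sstr2* cells with exact 95% Poisson intervals and dotted lines for the other cells of the zone, control and KO section in separate colours. *Nrp1* in *Unc5d*/*Sstr2* cells went from 21583 CPM in the outer to 13317 CPM in the inner zone in control and from 53275 to 20949 CPM in the KO section, and *Aldoc* ran the opposite way.

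The rule also gathered a second group of cells in another place. Within 600 µm of the line between the hemispheres, where the medial pallium lies, 199 of the 721 control cells (27.6%) and 998 of the 3771 KO cells (26.5%) were found, and other pallial cells had shares of 22.6% and 31.0% there. Cells near the midline met the rule at 6.09% in control and 10.3% in the KO section, beside 4.73% and 12.5% in the wall. Their content differed from that of the wall cells: 55 of 242 genes (22.7%) differed at least 2-fold the same way in both sections, of which 15 (6.2%) were lower near the midline and the others higher. The genes below were named after their values were seen.

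The upper-layer genes *Pou3f2*, *Cux2* and *Pou3f1* were low near the midline. *Pou3f2* stood at 14149.8 CPM there against 66766 CPM in the wall of the control, and at 30188 against 71568 CPM in the KO section, log2 -2.24 (-2.60 to -1.89) and -1.25 (-1.32 to -1.17). *Cux2* gave log2 ratios of -3.51 (-4.46 to -2.67) and -2.18 (-2.34 to -2.03) and *Pou3f1* -2.39 and -2.005. The other pallial cells were lower near the midline as well, at log2 -1.13 and -0.60 for *Pou3f2* and -2.002 and -1.70 for *Cux2*. Compared with the other cells of the same place, *Pou3f2* in *Unc5d*/*Sstr2* cells was 1.77 and 1.77 higher in the wall on the log2 scale and 0.66 and 1.12 near the midline, and *Cux2* was 1.08 and 1.16 in the wall but -0.43 and 0.68 near the midline. The excess of *Pou3f2* over the other cells of all depths was thus larger in the wall than near the midline. In the inner zone of the wall alone it was 0.78 and 0.41, so a larger excess in the wall is not shown at equal depth.

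Other genes were higher near the midline. *Calb2*, the calcium-binding protein calretinin, stood at 3415 and 2970.2 CPM against 346 and 28.9 CPM in the wall, log2 3.30 (1.59 to 5.28) in control, while the KO level in the wall lay under the blank mean. *Prokr2* gave log2 ratios of 2.56 (1.60 to 3.57) and 3.49 (3.20 to 3.78), and 64 of its 87 control counts and 887 of its 1109 KO counts in *Unc5d*/*Sstr2* cells of the region lay there. The cadherin gene *Cdh20* gave log2 ratios of 2.70 and 3.08, and the semaphorin co-receptor gene *Nrp2* 2.32 and 2.64. In the other pallial cells *Nrp2* differed little between the places (-0.04 and -0.27), while *Calb2*, *Prokr2* and *Cdh20* were higher near the midline there too (2.24 and 2.97, 1.60 and 1.82, 1.77 and 1.80). The cannabinoid receptor gene *Cnr1* stood at 29275 and 33949 CPM against 14229 and 15276 CPM, log2 1.04 and 1.15, and at -0.06 and -0.02 in the other cells. *Nrp1*, *Igfbpl1*, *Slc17a6* and *Tbr1* differed by less than 0.5 in either section. Over the other cells of the same place, *Nrp1* gave log2 2.13 and 2.31 in the wall but 0.68 and 1.06 near the midline. *Igfbpl1* went from 1.76 and 1.46 to 1.35 and 0.95, and *Meis2* from 1.86 and 1.67 to 0.90 and 0.87. *Slc17a6* did not fall (1.83 and 1.46 to 2.15 and 1.49), nor did *Tbr1* (-0.33 and -0.37 to 0.23 and 0.02). Depth was not matched here.

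Between genotypes, *Unc5d*/*Sstr2* cells of the KO section were compared with those of the control section, 1 section each, so the values describe these sections and not the genotypes. Of 242 genes, 16 (6.61%) were at least 2-fold higher and 60 (24.8%) at least 2-fold lower in the KO cells, and for 14 (5.79%) and 54 (22.3%) of these the interval left out 0. The median log2 ratio over the genes was -0.35. Among other pallial cells the counts were 19 (7.85%) and 5 (2.07%) with a median of 0.10, and among cells outside the region 15 (6.2%) and 2 (0.826%) with a median of 0.13. The split of the *Unc5d*/*Sstr2* cells therefore leaned to lower values, unlike that of the remaining cells, and it changed to 24 higher and 31 lower once the ratios were centred on their median. The lower genes include some whose KO level lay under the blank mean, such as *Rxrg* (63.5 CPM) and *Baiap3* (78.1 CPM), for which no fold is read. With at least 10 counts required in each section, 12 of 218 genes were higher and 64 lower, and these 2 genes remained.

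*Cd24a*, a surface glycoprotein gene of immature neurons, had the highest ratio, 12351 CPM in control and 58376 CPM in the KO section, log2 2.24 (2.08 to 2.41). The difference was not particular to these cells, since other pallial cells gave 2.10 and cells outside the region 2.04. *Epha3* gave a log2 ratio of 1.83 (1.58 to 2.08) beside 1.71 and 1.58, *Gpr161*, an orphan receptor of the cilium, 1.55 (1.13 to 1.99) beside 1.21 and 1.45, and *Nkain3*, a gene for a protein that binds the sodium pump, 1.54 (1.05 to 2.06) beside 1.19 and 1.39. *Epha5*, an ephrin receptor, stood at log2 1.17 (0.78 to 1.58) beside 0.87 and 0.99. Between single hemispheres *Cd24a* ran from 2.10 to 2.30 and *Epha3* from 1.36 to 1.79. *Gpr161* ran from 0.83 to 1.73, *Nkain3* from 0.55 to 1.67 and *Epha5* from 0.83 to 1.51, so these fell below 2-fold in part. *Kcnab3*, a potassium channel subunit gene with 8 control counts, gave a log2 ratio of 1.30 (0.14 to 2.69) beside 0.08 and 0.41, but 1.02 (-0.14 to 2.42) within the region and -0.19 to 1.52 between single hemispheres. *Thsd7a* and *Vmn2r1* rested on 6 and 4 control counts, at 195 and 129.7 CPM, and within the region both intervals of the KO to control ratio included 0.

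Several of the lowest ratios rested in part on the 151 control cells outside the region. *Sulf2*, a heparan sulfate sulfatase gene, went from 4214 to 976 CPM, log2 -2.11 (-2.50 to -1.71), and with cells of the region alone, which held 55 of its 130 control counts, the log2 ratio was -1.62 (-2.18 to -1.04). Other pallial cells gave -0.45 and other cells outside the region -0.63. *Ptprm*, a receptor tyrosine phosphatase gene, gave a log2 ratio of -2.02 (-2.43 to -1.59), and -1.64 (-2.18 to -1.08) in the region with 60 of 114 control counts, beside -0.86 and -0.75. *Grm3*, a metabotropic glutamate receptor gene, gave -1.98 (-2.55 to -1.39), but -1.14 (-1.90 to -0.33) in the region with 27 of 60 counts and -2.31 to -0.64 between single hemispheres, beside -0.50 and -0.39. *Rxrg*, a retinoid receptor gene of striatal neurons, had 11 of its 12 control counts outside the pallial region and a KO level under the blank mean, as had *Baiap3*, a gene for a protein of vesicle release with 8 of 15 counts outside, so that no fold is given for either.

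For *Chrna2* and *Bcan* the ratio was about as low within the region. The acetylcholine receptor gene *Chrna2* gave a log2 ratio of -2.12 (-2.88 to -1.32) in all *Unc5d*/*Sstr2* cells and -2.26 (-3.07 to -1.41) in those of the region, on 35 and 31 control counts, beside -1.03 in other pallial cells and -0.96 outside. *Chrm1*, a muscarinic acetylcholine receptor gene with all its 20 control counts in the region, went from 648 to 156 CPM, the latter near the blank mean. *Bcan*, a proteoglycan gene of the glial lineage, gave -1.86 (-2.61 to -1.08) and -1.84 (-2.66 to -0.97) on 34 and 27 counts, beside 0.10 in other pallial cells and -0.57 outside the region.

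**Figure D5:**
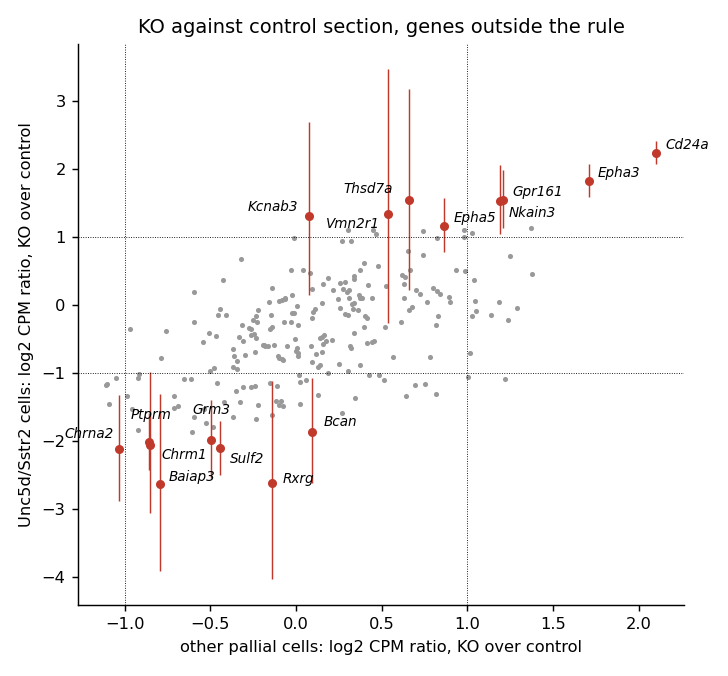
Log2 CPM ratios of the KO over the control section in *Unc5d*/*Sstr2* cells (y) against other pallial cells (x), 1 point per gene outside the rule. *Cd24a* and *Epha3* lie high on both axes, at 2.24 and 2.10 and at 1.83 and 1.71, while the cloud of genes lies lower on the y axis, with a median of -0.35 against 0.10.

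By list, the 11 genes of upper-layer or migrating projection neurons had a median KO to control log2 ratio of 0.48 in *Unc5d*/*Sstr2* cells, with 4 at least 2-fold higher and 0 lower. These were *Cd24a*, *Epha3*, *Nrp1* (1.09) and *Kcnk2*, a potassium channel gene (1.13), while *Pou3f2* gave 0.31 and *Cux2* 0.48. With cells of the region alone *Nrp1* gave 0.989, and neither it nor *Kcnk2* passed 2-fold. Between single hemispheres *Pou3f2* ran from -0.43 to 0.52. In the region it stood at 44139 and 47259 CPM in cells with *Sstr2* alone, 65652 and 66152 CPM in cells with both genes, and 66667 and 58026 CPM in cells with *Unc5d* alone. The same list had medians of 0.16 in other pallial cells and 0.52 in cells outside the region, with 4 and 3 genes at least 2-fold higher. The 17 transmitter and peptide receptor genes had a median of -1.17, with 0 higher and 10 lower. The 16 guidance genes had a median of -0.02 with 5 higher and 1 lower, the 8 potassium channel genes -0.70 with 2 higher and 3 lower, and the 4 deep-layer genes -0.000568 with none past 2-fold. All of these stand beside the median of -0.35 and the shares of 6.61% and 24.8% over all genes.

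Markers of other cells moved with the section as well. Summed over the 4 radial glia genes on the panel, *Unc5d*/*Sstr2* cells of the whole section held 22011 CPM in control and 8967 CPM in the KO section. Counting cells of the pallial region only, the hemispheres gave 12905 and 18628 in control and 8225 and 8796 in the KO section. The 2 cycling genes ran opposite ways, *Ccnd2*, a cyclin, at 78871 and 37533 CPM and *Top2a* at 15268 and 21029 CPM. The 7 GABAergic genes summed to 8072 and 5101, the 7 striatal genes to 1913 and 1215, the 5 oligodendrocyte precursor genes to 3533 and 2369.9, the 3 microglial genes to 1556 and 927, and the 2 Cajal-Retzius genes to 940.1 and 373. The 6 vascular genes were higher in the KO section, at 1718 and 2304 CPM. Members of the GABAergic list *Gad1* and *Gad2* were limited by the rule to below 2 counts in every cell, whatever its depth.

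Cells outside the pallial region were 151 of the 872 control and 369 of the 4140 KO *Unc5d*/*Sstr2* cells, and they held more of the radial glia sum, 41958 and 13563 CPM, and of the striatal sum, 7371 and 3253 CPM. Within the region the radial glia sum was still 17882 in the control against 8545 CPM in the KO section, while in the other pallial cells it was 8430.5 against 12472. The striatal sum turned within the region, at 783 CPM in control and 1029 CPM in the KO section. With cells of the region alone, 13 genes were at least 2-fold higher and 53 lower in the KO section. The segmented *Unc5d*/*Sstr2* cells were also larger in the control, with a median volume of 1368 µm³ against 715 µm³ in the KO section, where other pallial cells had 1231 and 817 µm³. The part of these markers, of cell volume and of depth in the ratios between the sections was not tested.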

How the data were processed

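MERFISH was performed on 1 control and 1 KO coronal section at E16.5. The authors imaged 10 µm cryosections on a MERSCOPE instrument (Vizgen) with the Pan Neuro panel, and its software decoded molecules and drew cell borders. The segmentation model and the software version are not given in the sources used here. The deposited tables hold raw counts (decoded molecules of each gene in each segmented cell), cell centres (µm) and volumes (µm³), and the position and imaging plane of every molecule. Counts were used as deposited, the 50 blank barcodes were left out of totals, and no doublet caller was run. Members and gene lists were chosen with earlier results of these data known, and the limit of 3% for the region, the 600 µm limit and the zone edges of 0.7 and 0.85 were set after the sections were seen.

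Cells of a class were summed and scaled to CPM, a sum of 1e+06. The pallial region was drawn in 25 µm bins (smoothing SD 50 µm) where pallial genes exceeded 50% of pallial plus subpallial transcripts, and relative depth was taken from its edges. The cells compared with the selected ones were deep-layer, *Slc17a7*/*Nr4a2* and *Eomes* cells, each led by its own genes. Genes at or above the panel's median CPM were compared, genes of the rule stood apart, and a fold of 2 was the limit. Named genes were those of the rule, *Pou3f2*, the 10 highest and 5 lowest against other pallial cells, the 8 highest and 8 lowest between sections, and members of the lists. Intervals are exact at 95% and cover counting error only. Cells were thinned to 20 transcripts with a fixed seed. Alternatives were the minimum (10 or 50), the limits of the rule (3 counts, 5%), the region limits (70%, 4%), single hemispheres, imaging planes 0 to 2, exclusion of the largest 1% of cells and other reference cells. Scripts used Python 3.11.15 with numpy 2.4.6, scipy 1.17.1, pandas 2.3.3 and matplotlib 3.10.9 and were tested on simulated data. Single genes that are part of the counts are not all reported here.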

Additional observations from a re-analysis of the deposited data

Results flagged for a closer look

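Of 242 genes, 53 had a log2 ratio of *Unc5d*/*Sstr2* over other pallial cells of opposite sign in the 2 sections, 49 of them above 0 in control. For 12 the counting intervals lay on opposite sides of 0, and 2 of these were among the genes named by the rule for named genes. *Chrna2*, an acetylcholine receptor subunit gene, had a log2 ratio of 0.83 in control cells and -0.39 in KO cells. *Bcan*, a proteoglycan gene of the glial lineage, had 0.91 and -1.03. With 1 section per genotype the difference was not tested, and the control values rested on 31 and 27 transcripts in the *Unc5d*/*Sstr2* cells of the region.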

How the results depend on the processing

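No paired analysis was possible because there was 1 section per group. The log2 KO to control ratio of the share stayed above 0 under every alternative run. A looser count limit was not among them, and it would add more control than KO cells of the region (768 and 255 with 1 count). For the whole section (1.37) and the pallial region (1.23) it was 2.08 and 1.71 with a minimum of 50 transcripts, 0.88 and 0.72 at 5%, 2.46 and 2.28 at 3 counts, 1.18 and 0.96 when thinned, and 2.07 and 1.78 in planes 0 to 2. Single hemispheres gave 0.99 to 2.07. The median depth was 0.858 in the control at 3 counts, 0.786 in the KO section at 5% and 0.757 there with pallial genes over 70%. Thinned cells gave 0.863 and 0.786, cells beyond 600 µm 0.875 and 0.803, and the 4% limit 0.889 and 0.905, so that the KO minus control difference turned from -0.083 to 0.016. The cause was not tested. Single hemispheres reached 0.889 in the control and ran from 0.756 to 0.782 in the KO section, with differences from -0.133 to -0.062.

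The 12 genes higher than in other pallial cells became 43 against deep-layer cells (11 shared), 40 against *Slc17a7*/*Nr4a2* cells (12 shared), 14 against *Eomes* cells (1 shared), 9 when thinned (6 shared) and 2 in the inner zone (2 shared). All were counted among genes at or above the median in *Unc5d*/*Sstr2* cells alone. The *Pou3f2* ratio (1.55 in the control, 1.68 in the KO section) was 1.35 in the control with a minimum of 10, 1.83 and 1.72 with 50, 1.73 and 1.64 at 5%, 1.28 in the control at 3 counts, 1.12 in the thinned KO cells, 1.68 and 1.65 in planes 0 to 2, and 0.78 and 0.41 in the inner zone. Single hemispheres reached 1.998 in the control and ran from 1.63 to 1.74 in the KO section. Between sections, the 16 higher and 60 lower genes became 31 and 96 with a minimum of 50 (13 and 42 shared), up to 26 and 91 between single hemispheres (6 and 34 shared), 20 and 51 when thinned (8 and 25 shared), and 31 lower when centred on the median ratio (31 shared). With 872 control cells and 30848 transcripts, genes near the blank level of 115 CPM could not be compared.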
